A study of Mus musculus with 4 samples.

Results

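Calcr, Tshr, F2r, Lpar1, Ackr3 and Adgre5 encode 6 membrane-spanning receptors of the G protein-coupled family. They were 6 of 31055 features counted in muscle stem cells, taken by gene symbol, and they were chosen on their measured levels by muscle and state. Those levels are therefore given as a description. The cells were sorted by green fluorescence from Tg:Pax7-nGFP mice aged 2 to 4 months, in which a nuclear GFP marks cells that use the Pax7 promoter. All groups share that transgene and that sort.

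The study set extraocular muscle (EOM), which moves the eye, against tibialis anterior (TA), which lifts the foot, in 2 states. Quiescent cells were sequenced as sorted, and activated cells were plated on Matrigel and grown for 4 days in growth medium at 3% oxygen. Each of the 4 groups was 1 droplet library (10x Genomics). With 1 library per group there was no replicate check and no test between groups, and each interval below covers counting error only. Activated cells differ from quiescent ones in culture as well as in state, and the effects of the 2 cannot be told apart.

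After filtering, 2908 to 5563 cells per library were kept, with medians of 4662 and 5038 unique molecular identifiers (UMIs) per cell in quiescent EOM and TA and 21261 and 23383 in activated EOM and TA. Levels are given as CPM, counts scaled to the same total in each library, and are compared within a gene and not between genes. A count of 3 UMIs equalled 0.172 and 0.195 CPM in quiescent EOM and TA and 0.0244 and 0.0293 CPM in activated EOM and TA; lists of 4 values below keep that order. Cell quality differed: mitochondrial UMIs exceeded 10% in 40.5% of the barcodes of quiescent TA and in 11.7% to 24.7% of those of the other libraries. Pairs of libraries shared 5 to 12 cell barcodes. The label of muscle stem cells was checked on 10 markers, of which 10 were at 20 CPM or more in both quiescent libraries and 8 in both activated ones. Endothelial markers summed to 6.01 to 47.1 CPM over the libraries, and macrophage and other myeloid markers to 1.06 to 22.9 CPM. Fibroblast markers summed to 598 and 708 CPM in quiescent EOM and TA and to 79.3 and 58.2 CPM in activated EOM and TA, with Col3a1 highest in each. Mural or smooth muscle markers summed to 430 and 264 CPM in the quiescent and 2095 and 1197 CPM in the activated libraries, of which Acta2, also known from cultured myoblasts, gave 2030 and 1175 CPM in the activated ones. Leaving out cells with a UMI of a marker of other cell types, Pecam1, Cdh5, Ptprc, Pdgfra and Rgs5 among them, changed none of the counts of receptor genes given below.

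As background, muscle stem cells lie quiescent beneath the sheath of a fibre until damage activates them, and signals at G protein-coupled receptors are among those known to hold them there. The calcitonin receptor Calcr is a known marker of the quiescent state, which collagen V and cyclic AMP signalling through it help to keep. Tshr, the thyrotropin receptor, is the target of the autoantibodies of Graves disease, whose eye form enlarges the extraocular muscles. F2r (PAR1) is cut open by thrombin, Lpar1 binds lysophosphatidic acid, Ackr3 takes up the chemokine CXCL12 without the usual G protein coupling, and Adgre5 (CD97) is an adhesion receptor for CD55.

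In GENCODE vM21, an annotation of GRCm38, Calcr lies at chr6:3685680-3764714 on the minus strand, Tshr at chr12:91384563-91549808 on the plus strand, and F2r at chr13:95601803-95618487 on the minus strand. Lpar1 lies at chr4:58435255-58553898 on the minus strand, Ackr3 at chr1:90203980-90216751 on the plus strand and Adgre5 at chr8:83723251-83741326 on the minus strand. A microRNA gene, Mir489, sits within Calcr on the same strand, outside its exons, and its product miR-489 is known to help keep muscle stem cells quiescent. Its mature 3p arm (RefSeq, GRCm38.p6, chr6:3721922-3721944, minus strand) is shown because it lies within the transcribed span of Calcr, with the seed, bases 2 to 8, in capitals. Polyadenylated RNA was counted here, so the mature microRNA itself was not measured.
mmu-miR-489-3p: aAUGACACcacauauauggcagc

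The 250 bases before the annotated start of Calcr, F2r and Ackr3 are shown because these genes were lower in activated cells of both muscles. Calcr is shown at the outer of its 2 RefSeq starts (chr6:3764714-3764963, minus strand), F2r at chr13:95618467-95618716 (minus strand) and Ackr3 at chr1:90203730-90203979 (plus strand). All 3 are from RefSeq on GRCm38.p6, 5′ to 3′. Capitals mark matches on either strand to the AP-1 motif TGANTCA and the E-box CANNTG.
Calcr: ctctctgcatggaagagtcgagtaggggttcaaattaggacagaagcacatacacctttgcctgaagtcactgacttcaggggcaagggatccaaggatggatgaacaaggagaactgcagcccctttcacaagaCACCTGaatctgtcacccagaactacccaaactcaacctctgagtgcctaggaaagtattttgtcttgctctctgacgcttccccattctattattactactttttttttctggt
F2r: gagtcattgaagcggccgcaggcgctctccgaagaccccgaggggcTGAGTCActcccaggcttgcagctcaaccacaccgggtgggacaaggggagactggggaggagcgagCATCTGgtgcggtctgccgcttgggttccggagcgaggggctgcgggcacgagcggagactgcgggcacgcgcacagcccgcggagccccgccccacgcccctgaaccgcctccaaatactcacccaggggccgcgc
Ackr3: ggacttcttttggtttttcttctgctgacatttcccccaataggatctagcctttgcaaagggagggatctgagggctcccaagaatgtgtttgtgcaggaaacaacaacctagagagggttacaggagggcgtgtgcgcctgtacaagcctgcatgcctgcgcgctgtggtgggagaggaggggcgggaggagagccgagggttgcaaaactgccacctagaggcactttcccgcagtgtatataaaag

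The shown windows differ in base composition, with 46% G and C for Calcr, 70.8% for F2r and 54% for Ackr3, against a median of 52.4% over 32851 RefSeq promoters. An E-box, the motif that Myod1 and Myog bind, was in 66.2% of those promoters, so its presence before Calcr and F2r is what most promoters show. AP-1 was in 6.75% of them and in the F2r window. The cyclic AMP response element TGACGTCA, in 1.55% of promoters, the RBPJ motif TGGGAA, in 21.6%, and the TEAD motif CATTCC, in 12.6%, had no match in the 3 windows shown. At the inner start of Calcr the window held 70.8% G and C and no match to any of the 5 motifs, so the composition and the E-box given for Calcr are those of the outer start alone. Tshr, also lower in activated cells of both muscles, is not shown because no RefSeq promoter was found for it in the sources used here.

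Calcr, the calcitonin receptor, was counted at 64.9 CPM in quiescent EOM and 53.1 CPM in quiescent TA. In activated EOM it was at 0.155 CPM, from 19 UMIs, and in activated TA at 0.127 CPM, from 13 UMIs. Both quiescent libraries were thus high and both activated ones close to 0. The level was 419-fold lower in activated than in quiescent EOM (267 to 699) and 418-fold lower in TA (243 to 788). With at most 5% mitochondrial UMIs, Calcr was at 64.6 and 0.289 CPM in quiescent and activated EOM, the latter from 4 UMIs, and had no UMI in activated TA. Between the muscles it was 1.22-fold higher in quiescent EOM (1.12 to 1.34), and in activated cells the interval of the ratio, 0.571 to 2.68, included 1.

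Tshr, the thyrotropin receptor, was counted at 153 CPM in quiescent EOM and 31.1 CPM in quiescent TA. It was at 0.253 CPM in activated EOM, from 31 UMIs, and at 0.0293 CPM in activated TA, from 3 UMIs. Quiescent EOM stood above each of the other libraries. The level there was 4.90-fold that of quiescent TA (4.45 to 5.42), a log2 ratio of 2.26 with 1 CPM added. With at most 5% mitochondrial UMIs that log2 ratio was 3.74, and the one between TA states was -3.55 in place of -4.96, both resting on 2 UMIs in quiescent TA. Tshr in EOM was then at 156 CPM in quiescent and 0.578 CPM in activated cells, the latter from 8 UMIs. It was 604-fold lower in activated than in quiescent EOM (425 to 891) and 1062-fold lower in TA (361 to 5167), the latter resting on 3 UMIs. Neither the hormone genes for its usual ligand, Tshb and Cga, nor its fellow glycoprotein hormone receptors Fshr and Lhcgr had a UMI in any of the 4 libraries.

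F2r, the thrombin receptor, was counted at 137 CPM in quiescent EOM, 281 CPM in quiescent TA, 47.2 CPM in activated EOM and 22.7 CPM in activated TA. TA was the higher muscle in quiescent cells and EOM the higher one in activated cells. The EOM to TA ratio was 0.487 (0.463 to 0.513) in quiescent and 2.08 (1.98 to 2.18) in activated cells. F2r was 2.90-fold lower in activated than in quiescent EOM (2.76 to 3.04) and 12.4-fold lower in TA (11.8 to 13.02). The 3 other protease-activated receptors, F2rl1, F2rl2 and F2rl3, stayed at or under 0.508 CPM in each library.

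Lpar1, a receptor for lysophosphatidic acid, was counted at 28.6 CPM in quiescent EOM, 87.8 CPM in quiescent TA, 19.7 CPM in activated EOM and 56.7 CPM in activated TA. TA was the higher muscle in both states, and the 2 EOM libraries were the lowest of the 4. The level was 3.06-fold higher in quiescent TA than in quiescent EOM (2.76 to 3.403) and 2.89-fold higher in activated TA than in activated EOM (2.75 to 3.03). Between states it differed less, 1.46-fold lower in activated EOM (1.32 to 1.604) and 1.55-fold lower in activated TA (1.46 to 1.64).

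Ackr3, the atypical receptor for CXCL12, was counted at 306 CPM in quiescent EOM, 386 CPM in quiescent TA, 4.16 CPM in activated EOM and 14.7 CPM in activated TA. It was 73.6-fold lower in activated than in quiescent EOM (67.2 to 80.8) and 26.2-fold lower in TA (24.7 to 27.7). Its level in quiescent TA was 1.26-fold that in quiescent EOM (1.21 to 1.31), and in activated TA it was 3.55-fold that in activated EOM (3.20 to 3.93), where both were under 20 CPM. With at most 5% mitochondrial UMIs the activated levels were 2.67 CPM in EOM and 15.1 CPM in TA.

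Adgre5, the adhesion receptor CD97, was counted at 67.5 CPM in quiescent EOM, 19.0 CPM in quiescent TA, 43.3 CPM in activated EOM and 62.8 CPM in activated TA. Quiescent TA was the low library, and the counting intervals of quiescent EOM (63.7 to 71.4) and activated TA (61.3 to 64.3) overlapped. The EOM to TA ratio was 3.55 (3.12 to 4.04) in quiescent and 0.690 (0.665 to 0.716) in activated cells. Activated TA stood 3.30-fold above quiescent TA (2.93 to 3.72), whereas activated EOM stood 1.56-fold below quiescent EOM (1.46 to 1.66). The last exons of Adgre5 face those of Ddx39, an RNA helicase gene on the other strand, and 895 of its 3757 exonic bases are exonic in both. Whether the counting used strand is not given in the sources used here, so reads there cannot be told apart. Ddx39 was at 21.4 CPM in quiescent EOM, 30.7 CPM in quiescent TA, 335 CPM in activated EOM and 405 CPM in activated TA. Its part in the Adgre5 values was not tested.

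**Figure D1:**
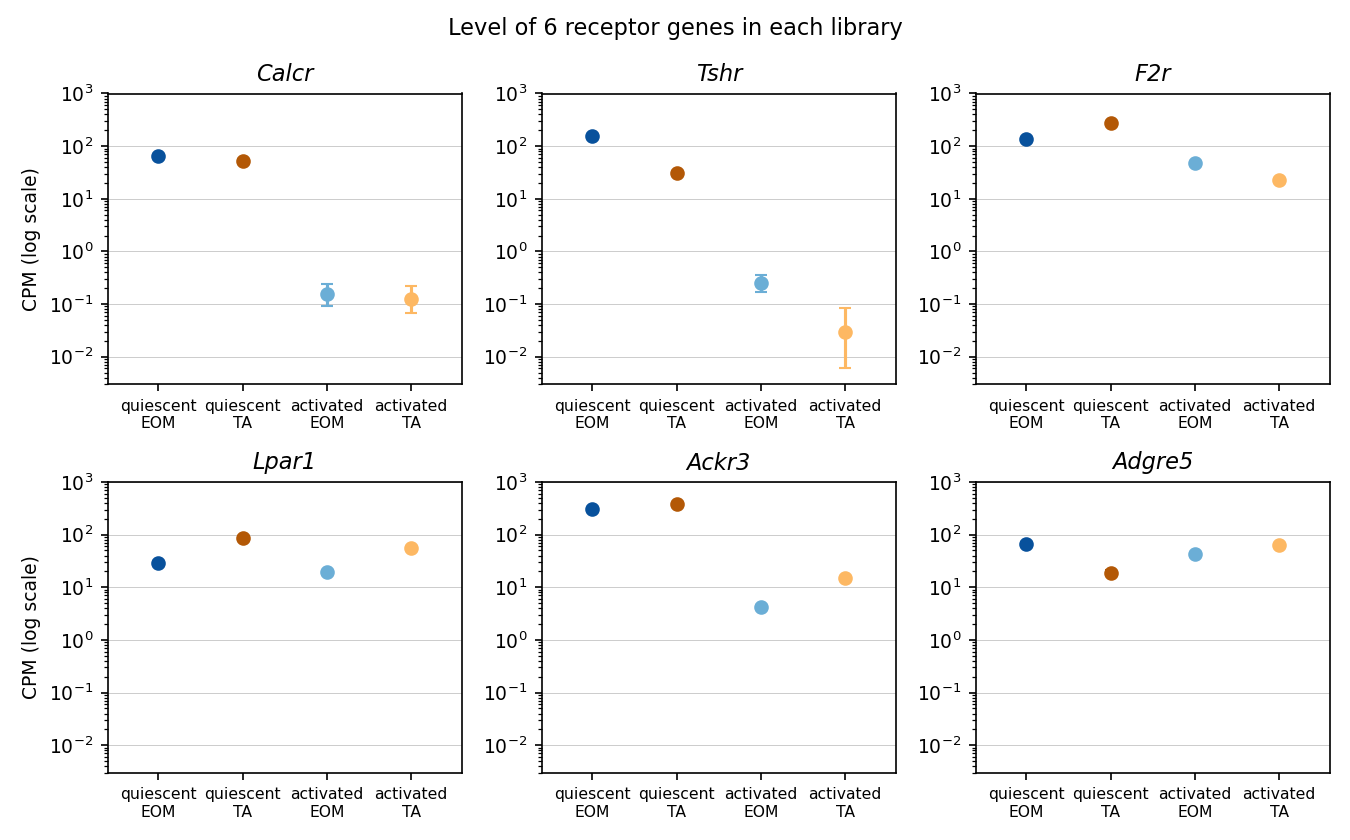
Level of each receptor gene in the 4 libraries, in CPM on a log axis. Points are libraries and bars are exact 95% Poisson intervals, hidden where smaller than the point. Calcr and Tshr lay above 30 CPM in both quiescent libraries and under 0.3 CPM in both activated ones, whereas Lpar1 stayed between 19.7 and 87.8 CPM.

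A gene was counted as higher or lower when the libraries were at least 2-fold apart with 20 CPM or more in either. Between quiescent libraries, 2 of the 6 genes, Tshr and Adgre5, were higher in EOM, where 2.97% of the 5418 genes at that level were, and 2, F2r and Lpar1, were lower, against 2.6%. Between activated libraries, F2r was higher in EOM, against 2.06% of 5301 genes, and Lpar1 lower, against 0.924%. With median-of-ratios size factors, the log2 ratio of F2r was 0.96, just short of 2-fold. Calcr, Tshr and Ackr3 were under 20 CPM in both activated libraries. Activated EOM had none of the 6 higher than quiescent EOM, against 27.5% of 6420 genes, and 4 lower, Calcr, Tshr, F2r and Ackr3, against 24.4%. Activated TA had 1 higher, Adgre5, against 30.5% of 6304 genes, and the same 4 lower, against 24.6%. With at most 5% mitochondrial UMIs, which left 46 cells of quiescent TA, 4 of these calls were lost. The log2 ratios between quiescent muscles became -0.67 for F2r and 0.95 for Adgre5, and that of Adgre5 between TA states became 0.83. Tshr fell out of the genes lower in activated TA because its 2 UMIs in those 46 cells, 10.7 CPM, lay under 20 CPM. The genes had been chosen on these values, so nothing is read from their counts against the shares of all genes. The 2 activation comparisons use the same cells as the 2 muscle comparisons, and their values are not independent of them.

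On the log2 scale, with 1 CPM added, the median of all genes measured was 0.14 for activated against quiescent EOM and 0.21 for TA when scaled by library totals, and 0.53 and 0.49 with TMM factors. Against that shift, Calcr was at -5.84 in EOM and -5.58 in TA, Tshr at -6.94 and -4.96, Ackr3 at -5.90 and -4.62 and F2r at -1.52 and -3.57. Lpar1, at -0.52 in EOM and -0.62 in TA, was at -0.14 and -0.34 with TMM factors. Adgre5 was at -0.63 in EOM and 1.67 in TA, and at -0.24 and 1.94 with TMM factors. The directions of the 6 genes between states were the same with both scalings. The F2r ratio between the activated muscles, 1.02 by library totals, was 0.96 with median-of-ratios factors and so under 2-fold there.

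**Figure D2:**
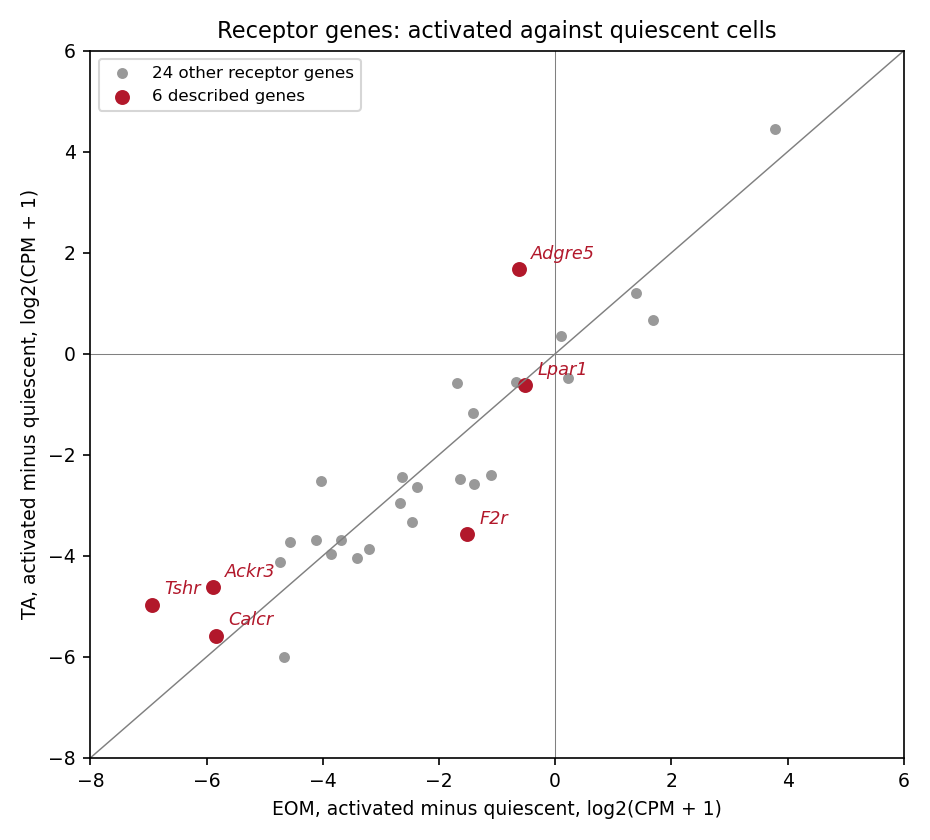
Activated minus quiescent log2(CPM + 1) in EOM (x axis) and TA (y axis) for the 6 genes (red) and the 24 other receptor genes of the lists that reached 20 CPM in a library (grey); the line marks equal values. Calcr, Tshr and Ackr3 sit at the lower left, F2r below the line at -1.52 and -3.57, and Adgre5 alone of the 6 has opposite signs, -0.63 and 1.67.

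The share of cells with at least 1 UMI was taken after thinning each cell to 2000 UMIs, so that depth did not set it. Calcr was found in 11.4% of quiescent EOM cells (10.4 to 12.5) and 9.33% of quiescent TA cells (8.29 to 10.5). Before thinning the shares were 23.1% and 20.05%. Of the thinned activated cells, 1 of 5532 in EOM and 1 of 4234 in TA had a Calcr UMI. Tshr was found in 26.0% of quiescent EOM cells (24.5 to 27.5) and 6.03% of quiescent TA cells (5.19 to 6.97), or 46.7% and 12.9% before thinning. Among activated cells 2 of 5532 in EOM and 0 of 4234 in TA had a Tshr UMI, the latter allowing, at 3 counts of the total, a share of up to 0.0709%.

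F2r was found in 22.0% of quiescent EOM cells (20.6 to 23.4), 40.7% of quiescent TA cells (38.8 to 42.5), 8.75% of activated EOM cells (8.02 to 9.52) and 4.20% of activated TA cells (3.62 to 4.85). Its shares therefore kept the order of its levels. Lpar1 was found in 5.32% (4.61 to 6.12) of EOM and 14.7% (13.4 to 16.1) of TA cells when quiescent, and in 3.62% (3.14 to 4.14) and 11.1% (10.1 to 12.04) when activated. Ackr3 was found in 36.4% (34.8 to 37.98) of EOM and 41.5% (39.7 to 43.3) of TA cells when quiescent, and in 0.759% (0.548 to 1.02) and 2.504% (2.05 to 3.02) when activated. Adgre5 was found in 11.6% (10.5 to 12.7) of quiescent EOM, 3.65% (2.99 to 4.40) of quiescent TA, 8.01% (7.31 to 8.75) of activated EOM and 11.8% (10.8 to 12.8) of activated TA cells. Without thinning, at the unequal depths of the libraries, F2r was found in 42.2%, 68.3%, 45.6% and 34.4%, Lpar1 in 11.9%, 31.2%, 30.8% and 65.3%, Ackr3 in 56.2%, 63.5%, 7.93% and 24.8%, and Adgre5 in 24.1%, 8.56%, 56.0% and 71.0% of the cells of the 4 libraries in that order.

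As a reference for free RNA, quiescent TA held 16 endothelial-like cells with a median of 5194.5 UMIs, against 5038 in the muscle cells, of which 13 had at least 2000 UMIs. After thinning, Calcr, Tshr and F2r were in 0 of these 13, which allows, at 3 counts of the total, a share of up to 23.1%, and Lpar1 and Adgre5 were in 1. That limit lies above the muscle shares of Calcr and Tshr, so the comparison could separate from background the F2r share of 40.7% but not those of Calcr, Tshr, Lpar1 or Adgre5. Over all 16 cells, F2r was at 29.0 CPM (5.98 to 84.7), under the 281 CPM of the muscle cells, and Lpar1 at 19.3 CPM (2.34 to 69.8), under their 87.8 CPM. Calcr was at 19.3 CPM (2.34 to 69.8), Adgre5 at 29.0 CPM (5.98 to 84.7) and Tshr at 0 CPM (up to 35.6). Those intervals included the muscle levels of 53.1, 19.0 and 31.1 CPM, so the levels could not separate these genes from background either. Pax7 was in 3 and Myf5 in 2 of the 13 cells. Ackr3, which some endothelial cells are known to express, was at 309 CPM there and in 53.8% of the 13 cells, so it is no gene that these cells should lack. No cluster of the other 3 libraries met the rule for such cells.

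**Figure D3:**
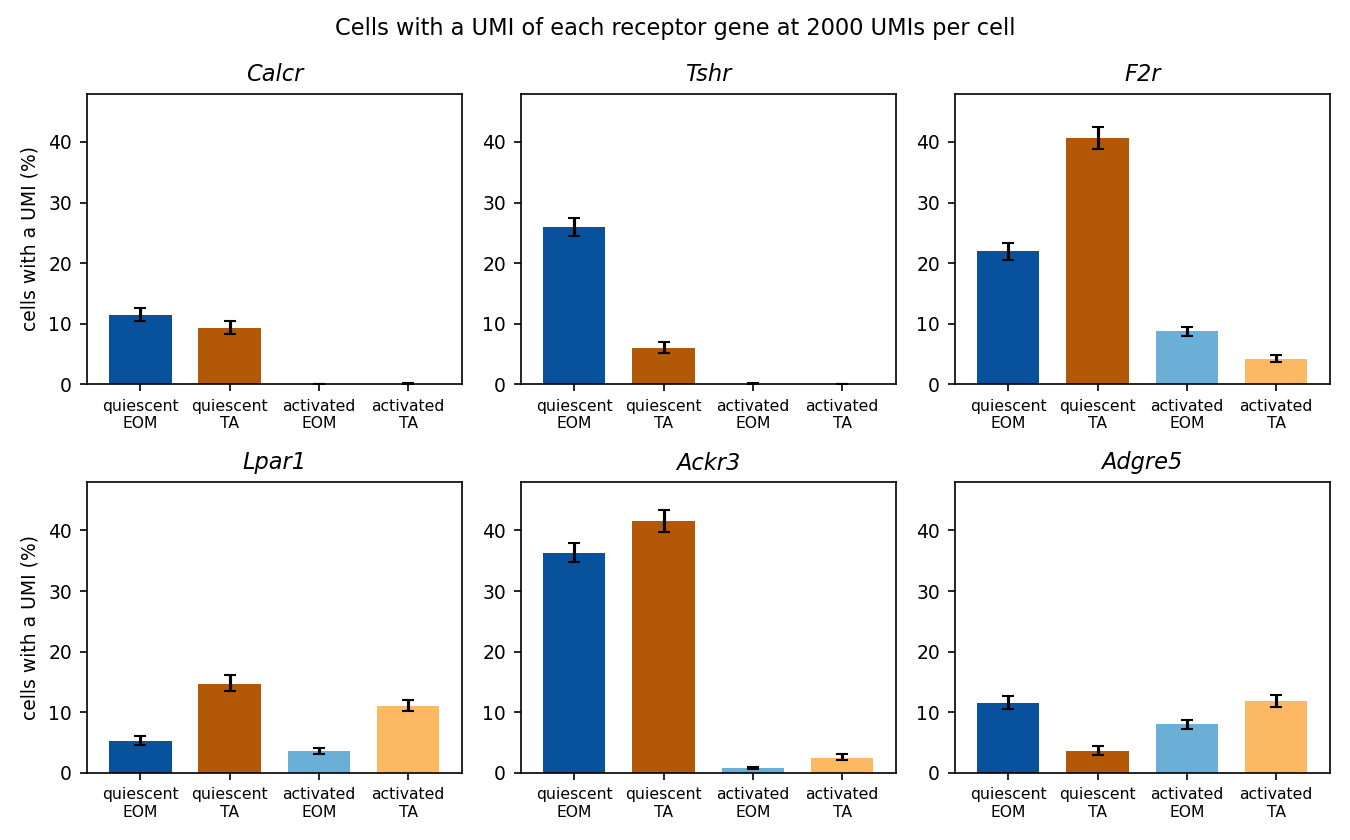
Percentage of cells with at least 1 UMI of each gene after thinning to 2000 UMIs per cell, by library. Bars are shares and whiskers exact 95% binomial intervals. F2r reached 40.7% in quiescent TA and Tshr 26.0% in quiescent EOM, while Calcr and Tshr were at or near 0% in activated cells.

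The 6 genes were also followed within libraries. At 2000 UMIs, cells with a UMI of none of them made up 27.8% of the quiescent EOM and 25.1% of the quiescent TA library, against 80.2% and 73.5% after activation. Cells with UMIs of 2 or more of the genes made up 31.6% and 33.3% of the quiescent libraries of EOM and TA, against 1.37% and 2.91% of the activated ones. At 4000 UMIs the shares with 2 or more were 60.8% and 61.0% in the quiescent and 4.76% and 9.11% in the activated libraries. At 2000 UMIs the shares of a gene among cells with and without another had overlapping intervals for each of the 14 or 15 pairs computed per library. Calcr, for example, was in 12.4% of quiescent EOM cells with a Tshr UMI (10.3 to 14.7) and in 11.1% of those without (9.90 to 12.3). Ackr3 was in 41.1% of quiescent EOM cells with Adgre5 (36.3 to 46.1) and in 35.7% of those without (34.0 to 37.5), and at 4000 UMIs in 53.7% and 54.0%. At 4000 UMIs 1 pair, F2r and Ackr3, had intervals apart in quiescent EOM and in activated TA, with opposite signs. In quiescent EOM, F2r was in 40.5% of cells with Ackr3 (37.9 to 43.2) and 34.9% of those without (32.2 to 37.7). In activated TA it was in 4.03% of cells with Ackr3 (1.95 to 7.29) and 8.62% of those without (7.76 to 9.54). In the activated libraries Calcr and Tshr were each in at most 2 cells at 2000 UMIs and 4 at 4000 UMIs. Those are too few to compare, so nothing is read from the overlap of their pairs there.

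Quiescent cells were split by a UMI of Pax7, the stem cell factor that drives the GFP, and by a UMI of Myod1, a factor of commitment that is known to appear early after isolation. In quiescent TA, Calcr was at 65.1 CPM in cells with Pax7 and 42.3 CPM in those without, a ratio of 1.54 (1.34 to 1.78), and Tshr at 37.7 and 25.1 CPM, a ratio of 1.501 (1.25 to 1.81). In quiescent EOM the same ratios were 1.16 (1.03 to 1.31) for Calcr and 1.17 (1.08 to 1.26) for Tshr. At 4000 UMIs the Calcr ratio was 1.96 (1.63 to 2.36) in TA and 1.21 (1.05 to 1.39) in EOM. That of Tshr was then 1.40 (1.12 to 1.76) and 1.20 (1.10 to 1.32). In EOM, Ackr3 was lower in cells with Pax7, a ratio of 0.866 (0.818 to 0.917). Lpar1 was at 0.751 (0.617 to 0.910) there, but at 0.977 (0.799 to 1.20) at 4000 UMIs. For cells with Myod1 over those without, the Calcr ratio was 0.802 (0.695 to 0.924) in TA and 0.855 (0.703 to 1.03) in EOM, and at 4000 UMIs 0.865 (0.740 to 1.01) and 0.812 (0.666 to 0.982). Each ratio was under 1, but which muscle's interval included 1 depended on the depth. The Tshr ratio was 0.775 (0.642 to 0.935) in TA and 1.01 (0.895 to 1.13) in EOM, and at 4000 UMIs 0.859 (0.699 to 1.06) and 0.939 (0.832 to 1.06), where both intervals included 1. Myod1 was found in 46.7% of TA and 12.3% of EOM cells when quiescent, and in 59.3% and 16.6% at 4000 UMIs. Lpar1 was higher with Myod1 in both muscles, 1.16-fold in TA (1.05 to 1.30) and 1.36-fold in EOM (1.06 to 1.74). F2r differed by at most 1.13-fold in these splits.

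Levels were also taken in clusters of quiescent cells. Over the 9 clusters per library of at least 50 cells, the ranges of Tshr, F2r, Lpar1 and Adgre5 did not overlap between muscles. These are the genes already called at least 2-fold apart between the quiescent libraries. How many of all genes have ranges apart was not counted, so nothing is read from the number of receptor genes that do. Tshr ran from 95.1 to 213 CPM in EOM clusters and from 12.1 to 55.5 CPM in TA clusters. F2r ran from 108 to 175 CPM in EOM and from 214 to 333 CPM in TA, and Lpar1 from 22.2 to 36.6 CPM in EOM and from 71.0 to 115 CPM in TA. Adgre5 ran from 33.3 to 101 CPM in EOM and from 16.1 to 23.8 CPM in TA. Calcr overlapped, with 45.0 to 90.9 CPM in EOM and 20.4 to 111 CPM in TA, and Ackr3 overlapped as well, with 211 to 372 CPM in EOM and 216 to 532 CPM in TA. Within TA, Calcr, Tshr and F2r shared their lowest cluster, of 341 cells led by Myog and Chac1, where they were at 20.4, 12.1 and 214 CPM. Calcr was highest in 406 cells led by Igfbp6 and Procr. Ackr3 was highest in 440 cells led by the chemokine genes Cxcl3, Cxcl5 and Cxcl2 and lowest, at 216 CPM, in 237 cells led by Fos. In EOM, Calcr and Tshr were lowest in 720 cells led by Chac1, at 45.0 and 95.1 CPM. Another EOM cluster, of 338 cells led by Myog, had Calcr at 74.4 CPM and Tshr at 153 CPM. The clusters were made from these same cells, on 2000 variable genes per library, so these ranges are a description.

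**Figure D4:**
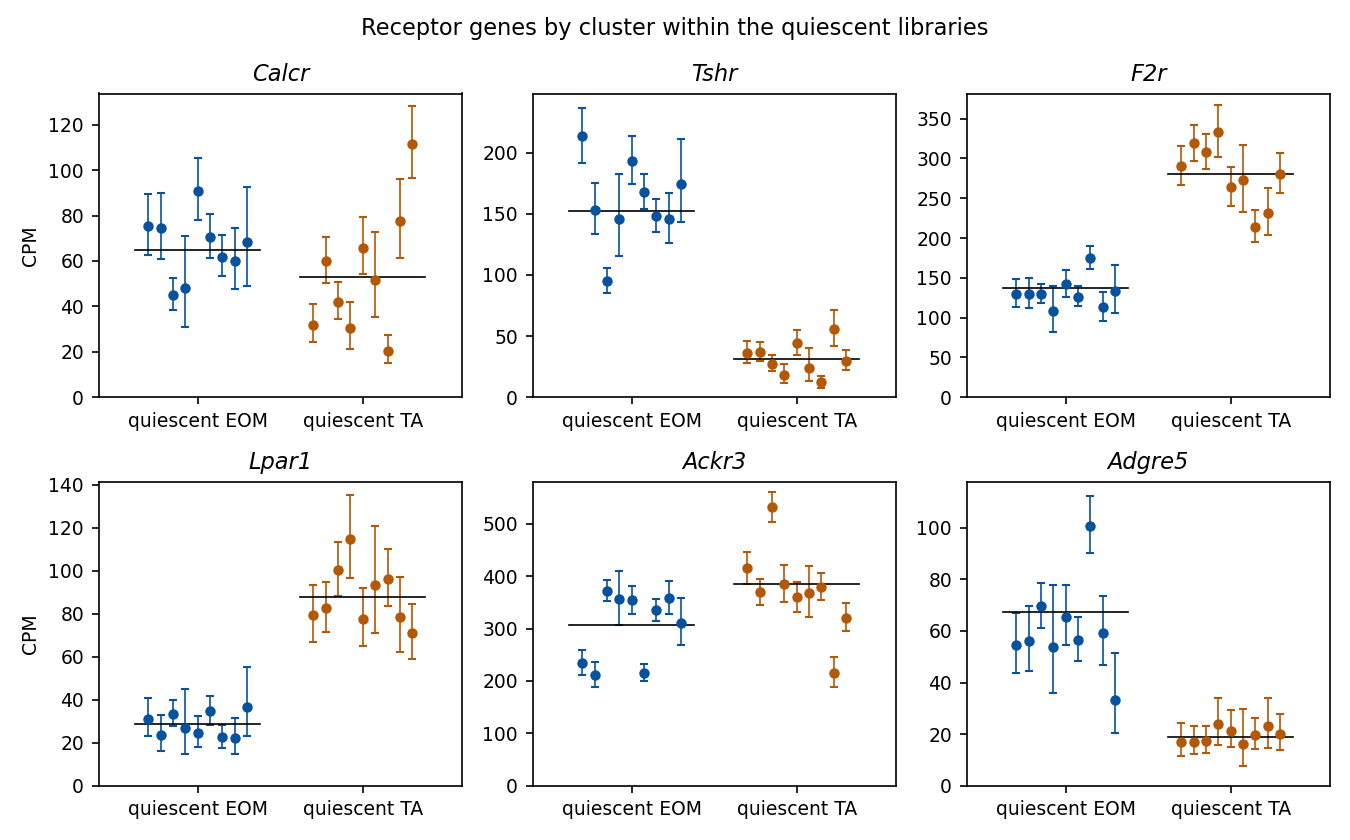
Level of each gene, in CPM, in the clusters of at least 50 cells in quiescent EOM (blue, 9 clusters) and quiescent TA (brown, 9 clusters). Points are clusters with exact 95% Poisson intervals and black lines are library levels. Tshr, F2r, Lpar1 and Adgre5 clusters lie apart by muscle, whereas those of Calcr and Ackr3 overlap.

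Activated cells were split at 2000 UMIs into differentiating cells, with any UMI of the exit and fusion genes Myog, Mymk and Mymx, cycling cells, with none of these and a UMI of Mki67 or Top2a, and cells with neither. After activation, differentiating cells were 52.4% of EOM and 65.5% of TA cells, and cycling cells 28.1% and 19.3%. These shares depend on depth and were 60.8% and 74.6%, and 30.6% and 20%, when states were set at 4000 UMIs. F2r was at 78.4 CPM in cycling and 17.1 CPM in differentiating cells of EOM, 4.58-fold lower (4.26 to 4.91), and at 36.5 and 15.03 CPM in TA, 2.43-fold lower (2.21 to 2.67). With states set at 4000 UMIs, it was 3.00-fold lower in EOM (2.83 to 3.18) and 2.30-fold lower in TA (2.10 to 2.51). Cells with neither were at 75.9 CPM in EOM and 35.7 CPM in TA, close to cycling cells. The EOM to TA ratio of F2r was 2.14 (1.98 to 2.32) in cycling, 2.12 (1.93 to 2.34) in neither and 1.14 (1.04 to 1.24) in differentiating cells, the last moving to 1.54 (1.43 to 1.65) when states were set at 4000 UMIs. In the clusters led by late muscle genes such as Ckm and Myh8, F2r was at its lowest, 2.55 CPM in EOM and 2.80 CPM in TA. It was highest in the clusters led by Mgp, Wisp2 and Col5a3, at 95.2 CPM in EOM and 41.7 CPM in TA.

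Ackr3, unlike F2r, was higher in differentiating than in cycling cells. It was at 1.71 CPM in cycling and 6.62 CPM in differentiating cells of EOM, 3.86-fold higher (2.97 to 5.09), and at 10.9 and 16.9 CPM in TA, 1.54-fold higher (1.34 to 1.78). Even the differentiating cells lay far under the quiescent levels of 306 and 386 CPM. Ackr3 was highest in the clusters that hold Dll1 and Prox1 among their leading genes, at 13.4 CPM in EOM and 24.6 CPM in TA. In the clusters led by late muscle genes such as Ckm and Myh8 it was at 1.56 CPM in EOM and 4.31 CPM in TA. Those levels were not above the ones in cycling cells, so the late clusters were low in both F2r and Ackr3. Lpar1 varied little with these states. Its ratio of differentiating over cycling cells was 0.988 (0.902 to 1.08) in EOM and 0.925 (0.868 to 0.986) in TA. Its EOM to TA ratio was 0.336 (0.308 to 0.368) in cycling, 0.312 (0.277 to 0.351) in neither and 0.359 (0.337 to 0.384) in differentiating cells. Adgre5 was lower in EOM in each state, with ratios of 0.796, 0.722 and 0.630 in the same order. Ddx39 was at 347 and 425 CPM in cycling and at 326 and 390 CPM in differentiating cells of EOM and TA. Calcr and Tshr had at most 13 UMIs in any state of either muscle, too few to compare.

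**Figure D5:**
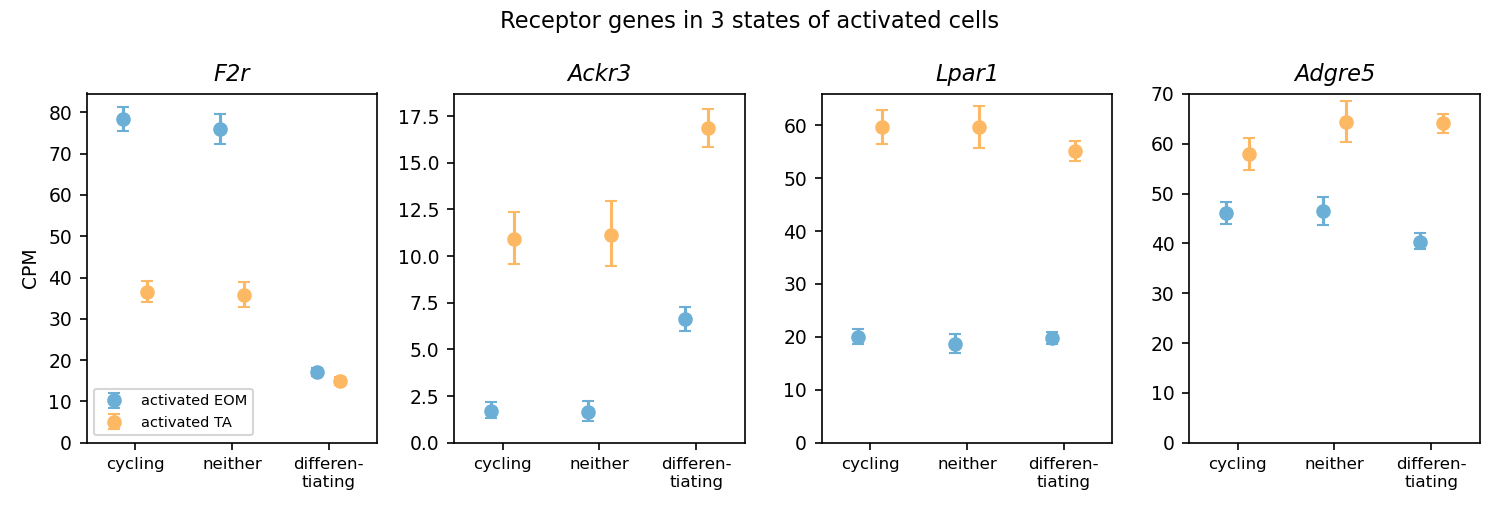
CPM of F2r, Ackr3, Lpar1 and Adgre5 in cycling, neither and differentiating cells of activated EOM (blue) and activated TA (orange), with exact 95% Poisson intervals. F2r is lowest in differentiating cells of both muscles, 17.1 and 15.03 CPM, Ackr3 is highest there, 6.62 and 16.9 CPM, and Lpar1 stays apart by muscle in each state.

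The lists held 242 other G protein-coupled receptor genes, of which 24 reached 20 CPM in a library and 43 had no UMI. In EOM 16 of the 22 measured were lower in activated cells and 3 higher, with a median log2 ratio of -2.42, where 24.4% of all genes were lower and 27.5% higher, with a median of 0.14. In TA 14 of 18 were lower and 1 higher, with a median of -2.61, where 24.6% of all genes were lower and 30.5% higher, with a median of 0.21. Lower in both muscles were Cxcr4, the signalling receptor for CXCL12, at 210 and 102 CPM in quiescent EOM and TA and 11.2 and 6.99 CPM in activated EOM and TA, and S1pr3, a sphingosine phosphate receptor, at 45.5, 71.3, 0.831 and 0.127 CPM in that order. Fzd2, a Wnt receptor, was higher in both, at 4.52, 1.17, 75.5 and 46.6 CPM. Cxcr4 was also 2.05-fold higher in quiescent EOM than TA, as were the purine receptor P2ry14, 4.10-fold, and the adhesion receptor Adgrl3, 2.74-fold. In activated cells Adgrl2, Fzd4 and Lpar4 were higher in EOM. Lpar4, which like Lpar1 binds lysophosphatidic acid, was at 34.2, 23.6, 39.9 and 16.8 CPM, with EOM the higher muscle, unlike Lpar1. Calcrl, the closest relative of Calcr, was at 20.4, 16.7, 0.660 and 0.381 CPM.

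Ligands and genes that make or clear them were described from a list of 33 symbols, of which 30 were in the files. In EOM 5 of 12 measured were lower in activated cells and 1 higher, with a median log2 ratio of -0.73, and in TA 8 of 13 and 1, with a median of -1.74. Over all genes, 24.4% were lower and 27.5% higher in activated EOM, and 24.6% and 30.5% in activated TA. Enpp2 (autotaxin), the enzyme that makes lysophosphatidic acid, was at 125 CPM in quiescent EOM and 57.3 CPM in quiescent TA, 2.19-fold apart in the direction opposite to Lpar1, and at 0.00815 and 0.0196 CPM, from 1 and 2 UMIs, in activated EOM and TA. Plpp3, a phosphatase that clears that lipid, was lower in activated cells of both muscles and its relative Plpp2 higher, at 11.97, 13.7, 63.97 and 72.9 CPM. Of the collagen V genes, known to give a ligand of Calcr, Col5a1 was at 54.4, 52.4, 44.5 and 16.8 CPM, Col5a2 at 102, 159, 134 and 155 CPM and Col5a3 at 17.6, 48.5, 14.99 and 4.21 CPM. Cxcl12, the ligand of Ackr3, was at 29.7, 34.9, 3.20 and 5.67 CPM. Adm, which encodes another peptide that Ackr3 binds, was at 25.0, 10.9, 5.01 and 2.34 CPM. Thbd, thrombomodulin, which binds thrombin away from F2r, was at 7.33 and 38.2 CPM in quiescent EOM and TA, higher in TA as F2r was. Serpine2, a thrombin inhibitor, was at 72.3, 53.3, 7.73 and 14.8 CPM. Cd55, the partner of Adgre5, was at 19.5, 9.25, 1.44 and 1.47 CPM.

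Downstream of the receptors, G protein subunits had 3 of 14 measured higher and 2 lower in activated EOM, and 4 of 15 and 2 in activated TA, with medians of 0.17 and 0.27. Of all genes, 27.5% were higher and 24.4% lower in activated EOM and 30.5% and 24.6% in activated TA, the background for the 2 lists that follow as well. Gnas, the stimulatory subunit through which Calcr and Tshr raise cyclic AMP, was lower in activated cells of both muscles, at 7309, 6768, 1335 and 1424 CPM, as was Gna13, at 141, 115, 30.1 and 23.8 CPM. Of the genes of cyclic AMP turnover and protein kinase A, 9 of 20 were lower and 5 higher in activated EOM, and 8 and 6 of 20 in activated TA, with medians of -0.76 and -0.25. Pde4b, which breaks down cyclic AMP, was at 725, 721, 2.57 and 3.598 CPM, whereas the kinase inhibitors Pkig and Pkia were higher in activated cells, Pkig at 60.4, 64.7, 366 and 440 CPM. Of the CREB targets, 8 of 8 measured in EOM and 9 of 9 in TA were lower in activated cells, with medians of -4.09 and -3.99. Among them were Nr4a1, at 101, 152, 0.456 and 0.694 CPM, and Rgs2, at 30.7, 50.4, 0.644 and 1.04 CPM. Several of these are also known as genes induced by tissue dissociation, and the part of dissociation in their levels was not tested. Crem, Pde4b and Pde4d stand in both the cyclic AMP and the CREB lists. Rgs2 stands in the CREB list and again in the list of RGS proteins. The counts of these lists are therefore not independent.

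Receptor partners, kinases, arrestins and RGS proteins had 5 of 10 measured lower and 2 higher in activated EOM and 4 and 3 of 11 in activated TA, with medians of -0.59 and -0.11, against 24.4% of all genes lower and 27.5% higher in EOM and 24.6% and 30.5% in TA. Ramp2, an accessory protein of Calcr and Calcrl, was at 84.2, 42.9, 8.23 and 6.84 CPM. Rgs4, which shortens G protein signals, was at 58.5 and 137 CPM in quiescent EOM and TA and 1.47 and 1.40 CPM in activated ones. YAP and TEAD targets and cofactors had 3 of 11 measured lower and 1 higher in activated EOM and 3 and 4 of 12 in activated TA, against those same shares of all genes, with medians of 0.45 and 0.16. Yap1, which protein kinase A signalling is known to restrain, was at 52.6, 53.2, 19.7 and 18.4 CPM and its relative Wwtr1 at 182, 175, 35.1 and 21.7 CPM, both lower in activated cells.

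The genes whose centred log2(CPM + 1) profile over the 4 libraries lay closest to each receptor gene were found among 6462 genes, as a Euclidean distance over 4 points. For Calcr they were Irf9 (distance 0.12), H2-Q4 (0.25) and Prelp (0.28), and for Tshr Col15a1 (0.63), Ifit1 (0.65) and Cxcl10 (0.70). For F2r they were Gstm2 (0.35), Rnd3 (0.36) and Mdfic (0.43), and for Lpar1 Plk2 (0.60), Msmo1 (0.69) and Idi1 (0.71). Those for Ackr3 included Arhgap20 (0.62) and Esr1 (0.88), and those for Adgre5 were Pdlim1 (0.31), Marcksl1 (0.41) and Csrp1 (0.44). Rnd3, for example, crossed as F2r did, at 169, 311, 52.3 and 34.4 CPM, and Pdlim1 followed Adgre5 at 57.8, 17.2, 47.9 and 53.0 CPM.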

How the data were processed

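Polyadenylated RNA of single cells was counted in 4 libraries, 1 per group. The deposited files hold raw UMI counts per gene and barcode. Per the submitters' processing notes, the authors used Cell Ranger 3.0.2 and mm10. Not given in the sources used here are the annotation release, the cell calling, the strand setting and how many animals gave a library.

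Barcodes were kept with at least 500 genes and at most 10% mitochondrial UMIs. Scrublet scores removed the top 0.8% per 1000 barcodes by rank as doublets. Each library was clustered with scanpy 1.11.5 and the Leiden method of igraph 0.11.9 (2000 variable genes, 30 components, 15 neighbours, resolution 1). A cluster was left out as another cell type when at least 3 of that type's markers were 4-fold higher and at 20 CPM or more there, 1 was among its top 10 genes, and they outnumbered muscle markers. The 20 CPM limit was added after clusters of 557 (quiescent EOM) and 467 cells (quiescent TA) had been seen to pass without it. The rule removed 16 endothelial-like cells. The cells kept were 3594 and 2908 in quiescent EOM and TA and 5563 and 4281 in activated EOM and TA, with 17462207, 15349294, 122730850 and 102291754 UMIs.

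UMIs were summed per library and scaled to CPM by library totals. Folds carry exact 95% intervals for a ratio of Poisson rates, levels exact Poisson intervals and shares Clopper-Pearson intervals. Only the intervals of folds were checked on simulated counts, which were drawn from Poisson rates. TMM factors came from edgeR 4.0.16. Alternatives were TMM and median-of-ratios scaling, other mitochondrial limits, no doublet removal, all barcodes, equal weight per cell, cells with markers of other types left out, minimum levels of 5 and 50 CPM, a pseudocount of 0.1 CPM and thinning to 4000 UMIs. The named genes are the 6 receptor genes, up to 4 genes per list and direction with the largest ratios between states, up to 2 between muscles, the ligand genes at 5 CPM or more, and the 3 nearest profiles per receptor gene; of those the text gives a part, and Calcrl, Lpar1's and F2r's relatives, Tshb, Cga, Fshr, Lhcgr and Ddx39 were named outside that rule. The members and lists were chosen with earlier results of these data known.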

Additional observations from a re-analysis of the deposited data

Results flagged for a closer look

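The difference between muscles had opposite signs in the 2 states for F2r and Adgre5. The EOM to TA fold of F2r was 0.487 in quiescent and 2.08 in activated cells, and that of Adgre5 was 3.55 in quiescent and 0.690 in activated cells. The activated to quiescent fold of Adgre5 also had opposite signs, 0.642 in EOM and 3.30 in TA. Each fold compares single libraries, so the difference between the folds was not tested.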

How the results depend on the processing

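Each count of receptor genes at least 2-fold apart, 8 in all, was recomputed under 11 other settings. The 8 counts kept their values with TMM factors, with at most 20% mitochondrial UMIs, without doublet removal, with all deposited barcodes, with the mean of per-cell CPM, and without cells holding markers of other cell types or, a setting chosen after seeing the data, of myeloid cells. At most 5% mitochondrial UMIs left 46 cells of quiescent TA and 263 of quiescent EOM. There the genes higher in quiescent EOM numbered 1 (not 2), those lower in it 1 (not 2), those higher in activated TA 0 (not 1) and those lower in it 3 (not 4, Tshr being lost), and the log2 ratio of F2r between quiescent muscles was -0.67 and those of Adgre5 0.95 between quiescent muscles and 0.83 between TA states. Genes higher in activated EOM than TA numbered 0 (not 1) with median-of-ratios factors and with a minimum of 50 CPM, and genes lower there 2 (not 1) with a minimum of 5 CPM, Ackr3 being added. Genes lower in activated than in quiescent TA numbered 3 (not 4) with a minimum of 50 CPM. The causes were not tested beyond these settings. No log2 ratio of a called gene changed sign under any setting run. Depth limits the Calcr and Tshr values of activated cells, which rest on 3 to 31 UMIs. No paired analysis was possible because each group has 1 library.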
